A study of Mus musculus with 4 samples.

Results

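Trp53, which encodes the tumour suppressor p53, was followed together with 9 genes tied to it by regulation or by role. They were Mdm2, Sesn1, Trp53inp1, Ccng1, Zmat3, Cdkn1a, Cdkn1b, Bcl2l1 and Mcl1, taken by gene symbol from a deposited count table of 28595 genes. All 10 were found in the table, and 9 of them were among the 5182 genes with enough counts to be tested, Cdkn1a being the exception. RNA was counted in 10 µm slices of mouse testis by photo-isolation chemistry, in which ultraviolet light marks the area whose RNA goes into the library. The 4 groups had 3 libraries each. They were libraries of H3t knockout testis irradiated at Leydig cells, libraries of wild-type testis irradiated at Leydig cells, knockout sections irradiated as a whole and wild-type sections irradiated as a whole. H3t is a histone H3 variant of the testis, and the series design presents its deletion as a way to disrupt spermatogenesis. Titles of the wild-type libraries carry the word young, and no age is given for the knockouts. Whether replicate libraries stem from different mice is not stated, so p-values reflect only how these libraries vary, which may be technical. Each group is 1 sample record that spans its 3 replicates, and whether groups were prepared or sequenced together is not stated.

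As background, p53 is a transcription factor that becomes stable after DNA damage and other stress and switches on genes for cell cycle arrest, repair and cell death. Mdm2 is the ubiquitin ligase that sends p53 to the proteasome, and it is itself a p53 target, which closes a negative feedback loop. In the mouse testis p53 is known for its part in the removal of damaged germ cells. Leydig cells lie between the seminiferous tubules and make testosterone.

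Promoter windows are printed for the members with the largest log2 fold changes after TMM scaling (trimmed mean of M values) between the sections of the genotypes, Sesn1, Mdm2 and Ccng1, and for Cdkn1a, whose promoter is a textbook p53 target. The windows run from 250 bases before to 50 after an annotated start, 5′ to 3′ on the gene's strand, and come from RefSeq on GRCm38.p6. Capitals mark matches to the p53 decamer, the unit that occurs in tandem in consensus p53 elements and reads the same way on both strands. In Cdkn1a they also mark CATGNNNNNNCATG, a pair of decamer cores, which overlaps a decamer match there. Sesn1 has a pair of such windows, at chr10:41810324-41810623 and chr10:41887189-41887488 on the plus strand.
Sesn1 window 1: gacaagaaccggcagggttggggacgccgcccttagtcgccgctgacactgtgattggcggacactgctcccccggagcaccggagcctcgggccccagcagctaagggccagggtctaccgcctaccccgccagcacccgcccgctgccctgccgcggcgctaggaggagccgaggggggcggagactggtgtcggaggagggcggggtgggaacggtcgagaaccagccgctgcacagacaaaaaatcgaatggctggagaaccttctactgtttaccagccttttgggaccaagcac
Sesn1 window 2: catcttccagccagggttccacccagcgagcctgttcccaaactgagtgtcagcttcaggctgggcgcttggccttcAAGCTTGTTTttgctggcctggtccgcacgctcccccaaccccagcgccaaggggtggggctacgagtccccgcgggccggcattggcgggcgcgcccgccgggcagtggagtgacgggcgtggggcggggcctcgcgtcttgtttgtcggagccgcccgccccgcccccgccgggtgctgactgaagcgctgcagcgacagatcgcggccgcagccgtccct
Ccng1, chr11:40755237-40755536, minus strand: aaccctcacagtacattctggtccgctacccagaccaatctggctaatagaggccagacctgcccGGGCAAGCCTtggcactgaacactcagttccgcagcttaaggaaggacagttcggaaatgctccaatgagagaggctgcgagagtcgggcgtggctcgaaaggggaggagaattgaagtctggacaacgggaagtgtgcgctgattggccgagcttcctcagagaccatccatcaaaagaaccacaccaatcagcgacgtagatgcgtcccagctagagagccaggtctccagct
Mdm2, chr10:117710709-117711008, minus strand: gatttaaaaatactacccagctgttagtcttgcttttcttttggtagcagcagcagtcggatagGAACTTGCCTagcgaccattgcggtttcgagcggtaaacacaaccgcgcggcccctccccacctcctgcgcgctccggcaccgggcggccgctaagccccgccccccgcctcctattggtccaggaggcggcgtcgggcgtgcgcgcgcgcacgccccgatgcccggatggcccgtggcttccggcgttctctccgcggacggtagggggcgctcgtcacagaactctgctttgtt
Cdkn1a, chr17:29090729-29091028, plus strand: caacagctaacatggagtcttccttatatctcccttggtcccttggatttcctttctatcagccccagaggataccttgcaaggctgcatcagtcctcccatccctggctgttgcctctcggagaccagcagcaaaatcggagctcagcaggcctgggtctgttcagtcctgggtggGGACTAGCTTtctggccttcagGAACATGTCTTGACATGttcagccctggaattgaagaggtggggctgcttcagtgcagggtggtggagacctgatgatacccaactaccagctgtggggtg
The first Sesn1 window held no decamer match, the second held 1, and the Ccng1 and Mdm2 windows held 1 each. The Cdkn1a window shown held 2 matches and the pair of cores, and its second window, at chr17:29093519-29093818 and not printed, held neither. In all, 8 of the 10 members had at least 1 window, 12 windows together, and those without an entry were Trp53inp1 and Zmat3. A decamer match stood in 5 of the 12 windows, 1 each of Trp53, Mdm2, Sesn1, Cdkn1a and Ccng1, and in none of those of Cdkn1b, Mcl1 and Bcl2l1. Of 32851 mouse windows of this length, 8.36% held a decamer match and 0.712% the pair of cores. The matches describe letters only, and the windows of genes that rose and of genes that fell both held them.

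Entire sections gave 247539 to 566527 counts per library and Leydig-targeted libraries 5947 to 54882. The members were detected in step with that depth. All 10 had a count in each knockout section and at least 9 in each wild-type section, against 2 to 7 in knockout Leydig-targeted libraries and 0 to 8 in wild-type Leydig-targeted libraries. Wild-type Leydig-targeted replicate 3 held no count of any member, and with 5947 counts its floor of 3 counts stands at 504 CPM (counts per 1e6 counts), above the levels of every member in any other library. Intervals and floors given here cover counting error only. The targeted gene, H3f4, had 0 counts in every knockout library and in all wild-type libraries except section replicate 1, where it had 1, which is too low to check the labels. Leydig marker genes took 6.2% to 7.5% of counts in knockout Leydig-targeted libraries and 1.25% to 2.81% in wild-type ones, against 3.45% to 4.19% in knockout sections and 0.316% to 0.629% in wild-type sections. In both genotypes the Leydig share of every targeted library lay above that of every section. Elongating spermatid markers still took 1.09% to 2.55% of counts in wild-type Leydig-targeted libraries, against at most 0.0113% in knockout ones. Spermatocyte markers took 0.437% to 0.641% in wild-type and 0.0113% to 0.0227% in knockout Leydig-targeted libraries. In wild types that was no lower than in sections (0.417% to 0.51%).

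**Figure D1:**
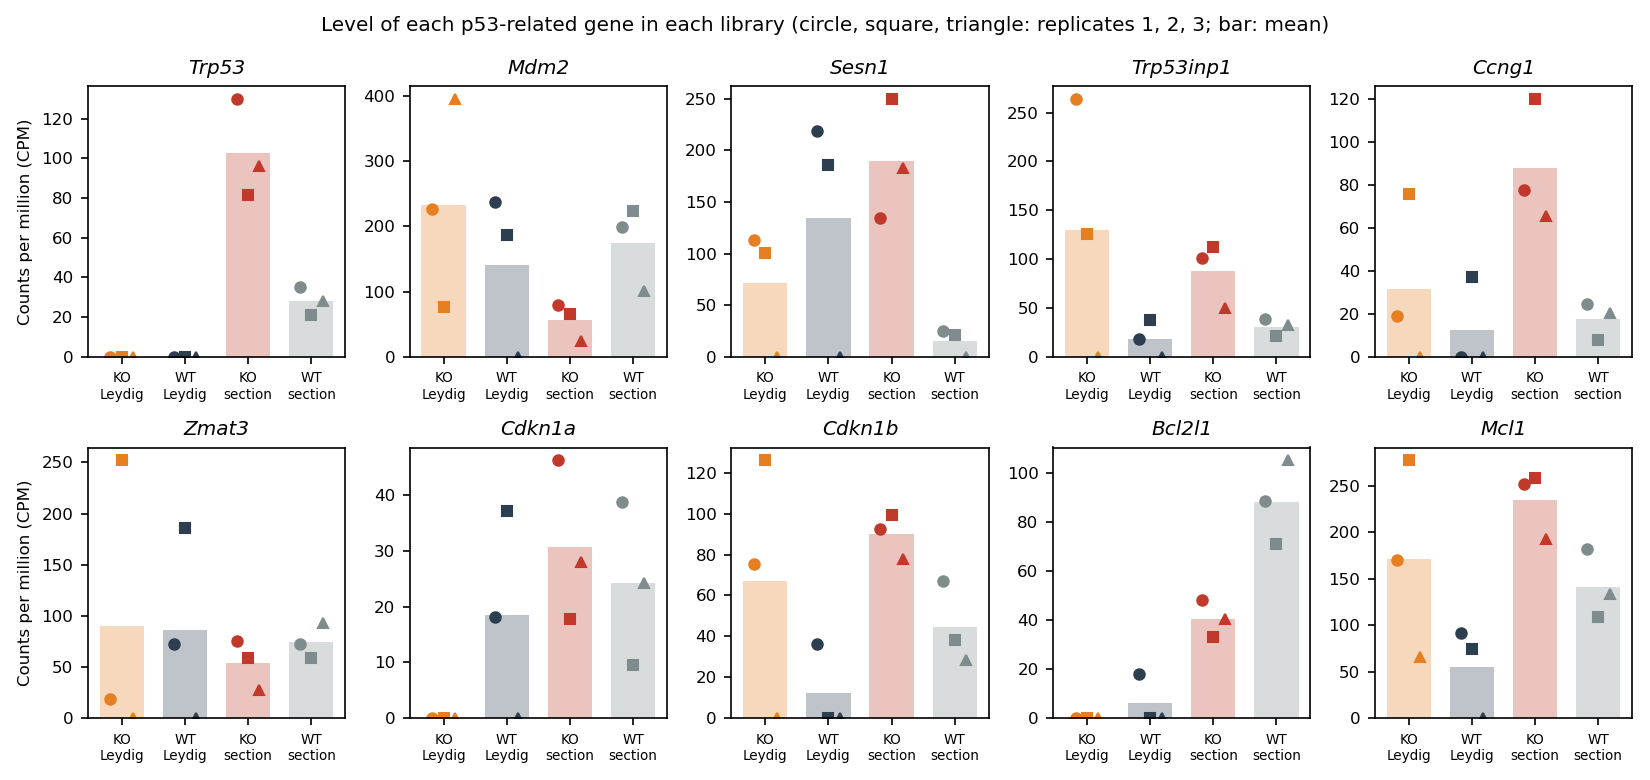
Level of each member in CPM (vertical axis, linear, from 0) in the 12 libraries, by group. Circles, squares and triangles are replicates 1, 2 and 3 and bars are group means. Sesn1 was high in knockout sections (135 to 250 CPM) and low in wild-type sections (0 to 24.7 CPM), and Trp53 was at 0 in all 6 Leydig-targeted libraries.

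In entire sections, knockouts had more Sesn1, Ccng1 and Trp53 and less Mdm2, Bcl2l1 and Zmat3 than wild types. Trp53inp1, Cdkn1b and Mcl1 did not pass the test, and Cdkn1a was too low to be tested. The 3 higher members of 9 tested stand beside a background of 22.6% of all genes tested, and the 3 lower beside 39.1%, so members were called about as often as other genes. The count filter, about 66.1 CPM in at least 3 libraries, bears on these calls. Trp53 reached it only in knockout sections, Bcl2l1 only in wild-type sections, and Ccng1 and Trp53inp1 only in knockout libraries. Their calls toward those groups, here and between regions, are therefore partly set by the filter. The median log2 fold change of the members was 0.39, against −0.35 over all genes tested. Before scaling, the CPM values of 6 members lay wholly higher in knockout sections, namely Trp53, Sesn1, Trp53inp1, Cdkn1b, Ccng1 and Mcl1, and those of Mdm2 and Bcl2l1 wholly lower. Among all genes tested, 39.6% were wholly higher and 36% wholly lower. The fitted values below come from edgeR's quasi-likelihood test with Benjamini-Hochberg adjustment after TMM scaling, while the per-library CPM values are not TMM-scaled.

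Trp53 RNA was more abundant in knockout sections. It had 130, 81.6 and 96.3 CPM in knockout sections, against 35.3, 21.0 and 28.3 CPM in wild-type sections, and the groups did not overlap. Summed over libraries this was 125 counts in knockout sections and 38 in wild-type sections, a ratio of 3.70 in CPM. After TMM scaling the log2 fold change was 1.29 ± 0.48 (SE, n = 3 each, adjusted p = 0.0131). Knockout section replicate 1 carried the call: without it the log2 fold change was 1.06 and adjusted p was 0.108. These values are of RNA, and p53 protein was not measured.

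Mdm2, the ligase of the feedback loop, moved the other way. It had 79.9, 66.3 and 24.9 CPM in knockout sections, against 199, 224 and 101 CPM in wild-type sections. Every knockout section lay below every wild-type section. Its log2 fold change was −2.22 ± 0.46 (n = 3 each, adjusted p = 5.52e-06). The call held without any 1 of the 12 libraries, with log2 fold changes of −2.56 to −1.79. So with TMM scaling more Trp53 RNA stood beside less Mdm2 RNA in these sections. The Trp53 part depended on the scaling and on knockout section replicate 1.

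Sesn1 encodes a sestrin, a stress-induced protein that restrains the growth kinase complex mTORC1 and is a known p53 target. It showed the largest rise among the members in sections. Counts were 64, 98 and 59 in knockout sections (135, 250 and 183 CPM), against 14, 11 and 0 in wild-type sections (24.7, 21.0 and 0 CPM). The lowest knockout section was well above the highest wild-type section. The summed ratio was 9.93 (6.55 to 15.7 by counting error), and the log2 fold change was 2.79 ± 0.49 (n = 3 each, adjusted p = 6.12e-08). It stayed between 2.42 and 3.44 when any 1 library was left out.

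Ccng1 encodes cyclin G1, a p53 target that acts with a phosphatase on Mdm2. It had 77.8, 120 and 65.3 CPM in knockout sections, against 24.7, 7.65 and 20.2 CPM in wild-type sections. The groups did not overlap, and the log2 fold change was 1.76 ± 0.53 (n = 3 each, adjusted p = 0.00184). Trp53inp1, a stress-induced nuclear partner of p53 with a role in autophagy, had 101, 112 and 49.7 CPM in knockout sections, against 38.8, 21.0 and 32.3 CPM in wild-type sections. Its CPM values did not overlap either, but its log2 fold change of 0.95 ± 0.47 missed the threshold (adjusted p = 0.0694). The call depended on scaling, with adjusted p = 0.00136 at library size alone and 0.00684 with DESeq2 size factors. It also changed when single libraries were left out: adjusted p was 0.0403 without knockout section replicate 3, 0.0182 without wild-type section replicate 1, 0.0458 and 0.0157 without knockout Leydig-targeted replicates 2 and 3, and 0.00838 and 0.0101 without wild-type Leydig-targeted replicates 1 and 3. Leydig-targeted libraries enter this comparison only through the shared fit and scaling. The median log2 fold change over all genes tested, −0.35 with every library, moved in these fits. It was −0.36 without knockout section replicate 3, 0.02 without wild-type section replicate 1, −0.31 and −0.12 without the knockout Leydig-targeted libraries named, and −0.01 without either wild-type one.

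Zmat3 encodes a zinc finger protein that binds RNA and is a p53 target. It had 75.7, 58.6 and 28.0 CPM in knockout sections, against 72.4, 59.3 and 92.9 CPM in wild-type sections. These values overlapped, and knockout replicate 1 was above the first and the second wild-type replicate. The log2 fold change of −0.99 ± 0.45 only just passed (adjusted p = 0.048), and the fit with replicate number as a block gave −1.03 with adjusted p = 0.0527. At library size alone it was −0.40 (adjusted p = 0.402). The call was also lost without knockout section replicate 2 or 3 (adjusted p = 0.102 and 0.24), without wild-type section replicate 1, 2 or 3 (0.204, 0.0688 and 0.162), and without knockout Leydig-targeted replicate 3 or wild-type Leydig-targeted replicate 1 or 3 (0.107, 0.173 and 0.184). Without those Leydig-targeted libraries or wild-type section replicate 1 the median over all genes tested shifted too, as given for Trp53inp1.

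Among the cyclin-dependent kinase inhibitors, neither p21 nor p27 RNA was called. Cdkn1a, which encodes p21, the classical arrest effector of p53, had 22, 7 and 9 counts in knockout sections, against 22, 5 and 6 in wild-type sections. The sums of 38 counts in knockout sections and 33 in wild-type sections gave a ratio of 1.29 (0.79 to 2.13 by counting error), so no difference was detectable at this depth. Without the filter on low counts its log2 fold change was 0.15 (adjusted p = 0.884). Cdkn1b, which encodes p27, had 92.5, 99.4 and 77.7 CPM in knockout sections, against 67.1, 38.3 and 28.3 CPM in wild-type sections. The CPM values did not overlap, but the scaled log2 fold change was 0.39 ± 0.45 (adjusted p = 0.461), or 0.95 (adjusted p = 0.038) at library size alone.

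Bcl2l1 and Mcl1 are the survival genes of the Bcl2 family among the members, and only Bcl2l1 was called. Bcl2l1, which encodes the anti-apoptotic protein Bcl-xL, had 48.3, 33.1 and 40.4 CPM in knockout sections, against 88.3, 70.8 and 105 CPM in wild-type sections. No knockout section reached the lowest wild-type section, and the log2 fold change after TMM scaling was −1.65 ± 0.46 (n = 3 each, adjusted p = 0.000824). Without scaling, the summed CPM was 2.05-fold lower in knockout sections (1.46 to 2.93 by counting error), a smaller difference. Mcl1, its short-lived anti-apoptotic relative, had 252, 258 and 193 CPM in knockout sections, against 182, 109 and 133 CPM in wild-type sections. Knockout CPM values were the higher ones, with a summed ratio of 1.65. After TMM scaling that difference shrank to a log2 fold change of 0.16 ± 0.44 (adjusted p = 0.771).

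**Figure D2:**
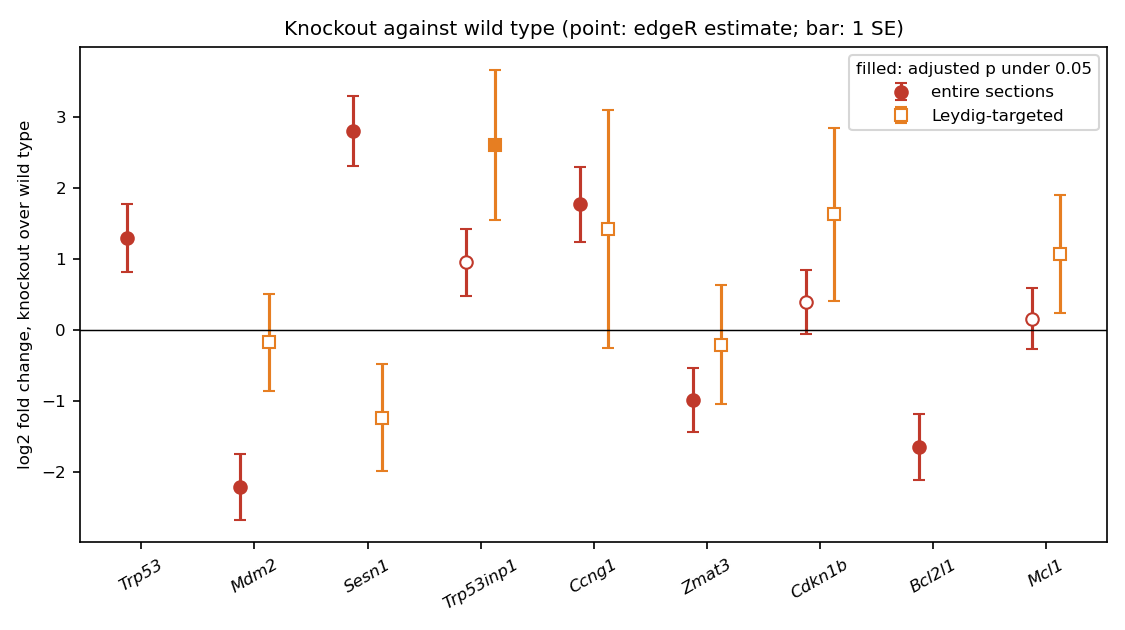
Log2 fold change of knockout over wild type (vertical axis) for the 9 members tested, in entire sections (red circles) and Leydig-targeted libraries (orange squares), with bars of 1 SE. Filled symbols have adjusted p under 0.05. Trp53 and Bcl2l1 have no Leydig-targeted symbol because a group there had no counts, and Sesn1 lies at 2.79 in sections and −1.24 in Leydig-targeted libraries.

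Most lists of cell type markers also differed between the sections of the genotypes. Shares of endothelial and red blood cell markers overlapped between them. Those of spermatogonia markers did too, at 0.069% to 0.0798% in knockout sections and 0.0788% to 0.0941% in wild-type sections. Spermatocyte markers took 0.0152% to 0.0212% of counts in knockout sections, against 0.417% to 0.51% in wild-type sections, and elongating spermatid markers 0.0171% to 0.0824% in knockout sections, against 2.47% to 4.60% in wild-type sections. Of these lists, 1 of 12 spermatocyte markers (Ccna1) and 2 of 12 elongating spermatid markers (Gapdhs and Spem1) were at 0 in knockout sections. Leydig markers took 3.45% to 4.19% in knockout sections, against 0.316% to 0.629% in wild-type sections, and Sertoli markers 1.71% to 1.81% in knockout sections, against 0.359% to 0.69% in wild-type sections. Macrophage markers took 0.15% to 0.375% in knockout sections and 0.0243% to 0.0545% in wild-type sections, with none of the 12 at 0. Their part in the members' differences was not tested. In such bulk libraries fewer cells of a type and less RNA per cell cannot be told apart.

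Scaling decides what a section difference is relative to. The median gene moved by −0.35 on the log2 scale with TMM, 0.08 with DESeq2 size factors, 0.22 at library size alone, −1.52 when libraries were scaled to Sertoli marker counts and −2.74 when scaled to Leydig marker counts. Of all calls, 36.6% were higher with TMM, 52.2% at library size alone, 5.79% with Sertoli scaling and 0.239% with Leydig scaling. Mdm2 and Bcl2l1 were lower under all of these scalings. Relative to Sertoli markers, Sesn1 alone of the members was still called higher, while Trp53 (0.15) and Ccng1 (0.67) were not called. Relative to Leydig markers, Sesn1 was at 0.45 (adjusted p = 0.476), and Trp53 (−1.08) and Ccng1 (−0.51) turned negative without passing. Trp53inp1, Cdkn1b and Mcl1 also turned negative there, at −1.37, −1.97 and −2.21, and these were called lower.

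**Figure D3:**
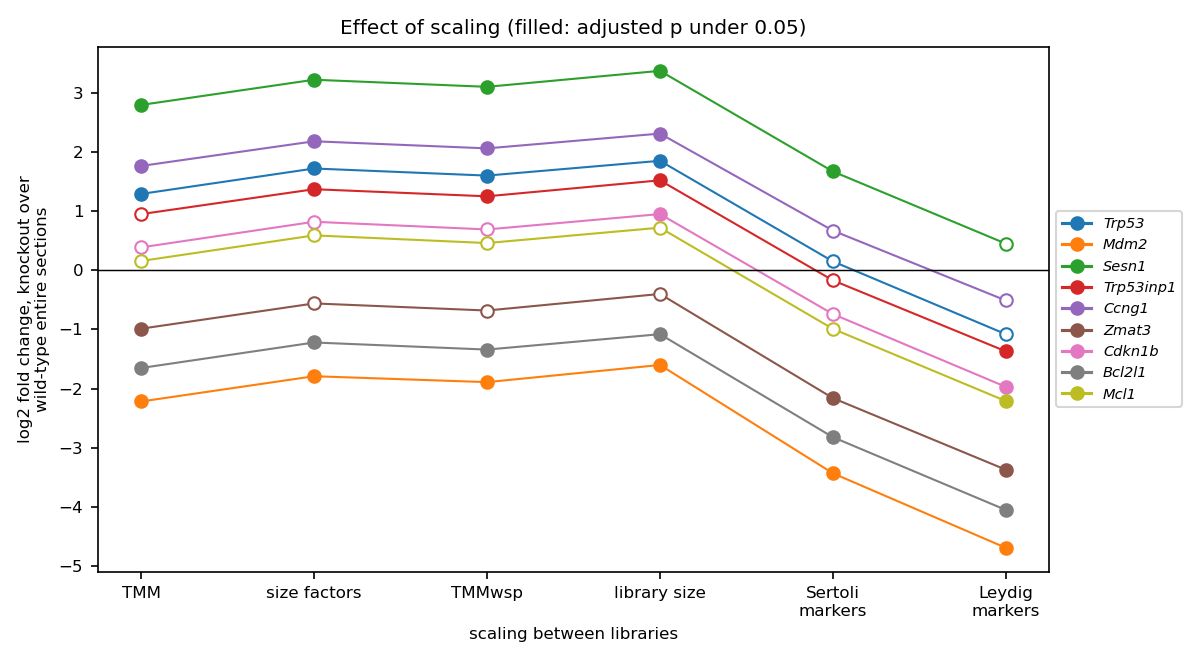
Log2 fold change of knockout over wild-type entire sections (vertical axis) for the 9 members tested under 6 scalings between libraries (horizontal axis). Filled points have adjusted p under 0.05. The order of the genes is kept while the zero line shifts, so that Sesn1 runs from 2.79 with TMM to 0.45 with Leydig marker scaling and Mdm2 is below 0 throughout.

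Other genes of the p53 pathway were read from 4 lists of 75 entries, of which 69 were in the table and 17 were tested. In sections 4 were higher and 8 lower in knockouts, with a median log2 fold change of −0.84. Over all genes tested 22.6% were higher and 39.1% lower, with a median of −0.35. Of 6 regulators tested, 3 were lower, of 9 targets 3 were higher and 4 lower, and the only Bcl2 family gene tested was higher. Among regulators, Atr, the replication stress kinase that activates p53, fell by 1.92 ± 0.45 on the log2 scale (adjusted p = 7.45e-05). Usp7, the deubiquitinase of Mdm2 and p53, fell by 1.43 ± 0.45 (adjusted p = 0.00308), or 0.0724 without wild-type section replicate 1 and 0.0577 at library size alone.

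Among targets, Ppm1d, the phosphatase that switches the p53 response off, fell by 2.34 ± 0.46 (adjusted p = 1.73e-06). Dram1, which links p53 to autophagy, had 44.1, 28.0 and 28.0 CPM in knockout sections, against 136, 178 and 133 CPM in wild-type sections. It fell by 2.74 ± 0.47 (adjusted p = 1.85e-08). Ei24, an endoplasmic reticulum protein first found as a p53-induced gene, rose by 1.96 ± 0.56 (adjusted p = 0.00122), but was at −0.34 with Leydig scaling. Cdkn2c, which encodes the kinase inhibitor p18 and is not a classical p53 target, had 50.4, 53.5 and 24.9 CPM in knockout sections, against 258, 186 and 174 CPM in wild-type sections. With a fall of 2.81 ± 0.46 it had the smallest p of the 17 genes (adjusted p = 5.76e-09). Dram1, Ppm1d, Atr and Cdkn2c were called lower in all 24 alternative fits, most of which kept the same count filter or the same genes. Dram1 reached that filter only in wild-type libraries. Ppm1d, Atr, Usp7 and Cdkn2c would not have passed it without wild-type libraries, nor Ei24 without knockout ones. The calls toward those groups are therefore partly set by the filter.

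**Figure D4:**
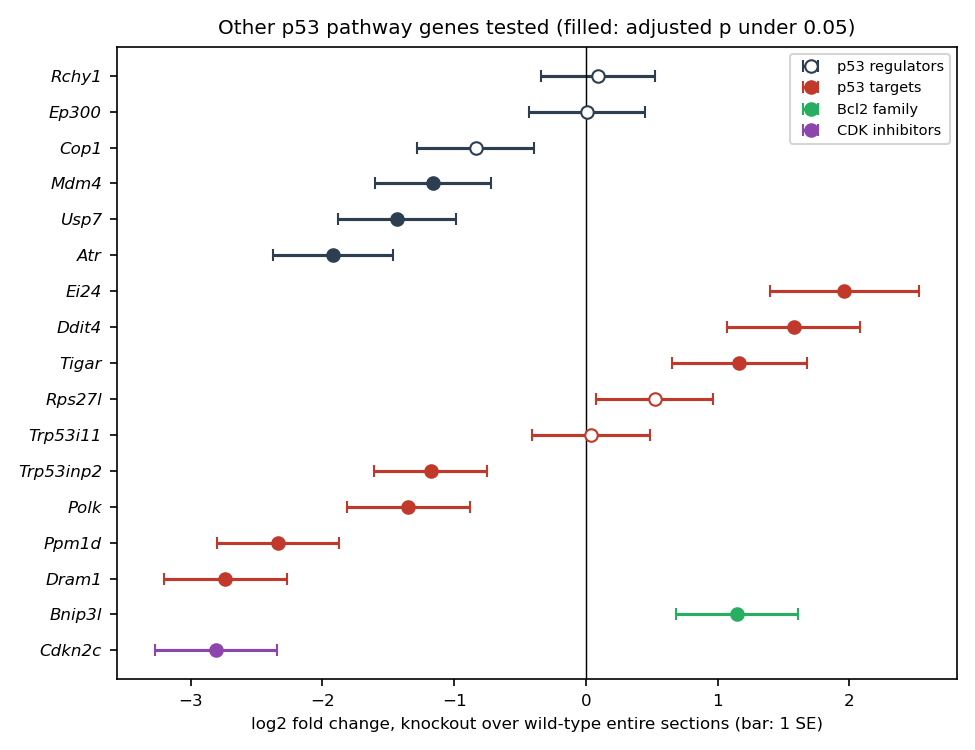
Log2 fold change of knockout over wild-type entire sections (horizontal axis) for the 17 other p53 pathway genes tested, by list, with bars of 1 SE. Filled symbols have adjusted p under 0.05. Targets lie on both sides of 0, from Dram1 at −2.74 to Ei24 at 1.96, and Cdkn2c is at −2.81.

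In Leydig-targeted libraries the genotypes differed in 1 member, Trp53inp1, which was higher in knockouts. Background rates were 7.55% of all genes tested higher and 20.9% lower. No member was called lower, and 1 of 9 had an unadjusted p under 0.05, against 2010 of 5182 genes tested. The DESeq2 Wald test called 0 members. At these depths only large differences could be called, so Sesn1 and Mdm2 are given as values.

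Trp53inp1 had 14, 5 and 0 counts in knockout Leydig-targeted libraries (264, 126 and 0 CPM), against 1, 1 and 0 in wild-type ones (18.2, 37.2 and 0 CPM). Replicate 3 of each genotype was at 0, so the groups overlapped. The summed ratio was 7.72 (1.86 to 68.4 by counting error) on 2 wild-type counts, and the log2 fold change was 2.61 ± 1.06 (n = 3 each, adjusted p = 0.0489). The call was lost in 10 of 12 fits that left out 1 library, all but those without wild-type section replicate 2 and knockout Leydig-targeted replicate 2, and adjusted p then ran up to 0.377 (without knockout Leydig-targeted replicate 1). With the replicate block it was 0.066. Trp53inp1 passed the count filter through knockout libraries alone.

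Sesn1 had 113, 101 and 0 CPM in knockout Leydig-targeted libraries, against 219, 186 and 0 CPM in wild-type ones. Apart from replicate 3 of each genotype, at 0, knockouts were lower. The log2 fold change was −1.24 ± 0.75 (adjusted p = 0.216), or −2.93 (adjusted p = 0.00149) when libraries were scaled to Leydig marker counts. Mdm2 had 226, 75.6 and 395 CPM in knockout Leydig-targeted libraries, against 237, 186 and 0 CPM in wild-type ones. The groups overlapped widely, and the log2 fold change was −0.18 ± 0.68 (adjusted p = 0.878).

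Mcl1 was at 170, 277 and 65.8 CPM in knockout Leydig-targeted libraries and at 91.1, 74.5 and 0 CPM in wild-type ones, with a log2 fold change of 1.07 ± 0.83 (adjusted p = 0.353). Zmat3 had 11 counts in knockout and 9 in wild-type Leydig-targeted libraries, of which knockout replicate 2 held 10. Knockout Leydig-targeted libraries held 9 counts of Cdkn1b, 4 of Ccng1 and none of Cdkn1a or Bcl2l1. Wild-type Leydig-targeted libraries held 2 counts of Cdkn1b, 1 of Ccng1, 2 of Cdkn1a and 1 of Bcl2l1. Trp53 had 0 counts in all 6 libraries. A count of 0 allows up to 27.8 CPM in knockout and 34.2 CPM in wild-type Leydig-targeted libraries by the floor of 3 counts over the group.

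Of the 17 other pathway genes, 3 were higher and 2 lower in knockout Leydig-targeted libraries, where 7.55% of all genes tested were higher and 20.9% lower. Atr had 56.6, 25.2 and 0 CPM in knockouts, against 401, 149 and 673 CPM in wild types. It fell by 3.35 ± 0.84 (adjusted p = 0.000912). Dram1 was 22.2-fold lower (3.5 to 923) on 1 knockout count, with a log2 fold change of −4.52 ± 1.17 (adjusted p = 0.00132). Both also fell in sections, though the sections and these libraries shared 1 fit. Neither would have passed the count filter without wild-type libraries, which partly sets these calls. Ddit4, an mTORC1 inhibitor induced by stress, had 302, 227 and 329 CPM in knockouts, against 18.2, 74.5 and 168 CPM in wild types. It rose by 2.33 ± 0.84 (adjusted p = 0.0261), which was 0.359 without wild-type and 0.0731 without knockout Leydig-targeted replicate 1, 0.0744 without knockout Leydig-targeted replicate 3 and 0.0598 without wild-type section replicate 1. Ep300, a p53 acetyltransferase, had 10 counts in knockout Leydig-targeted libraries, against none in wild-type ones, at least 2.71-fold higher (adjusted p = 0.0278). That call was lost without knockout Leydig-targeted replicate 1 (0.0585) or wild-type Leydig-targeted replicate 1, 2 or 3 (0.219, 0.0678 and 0.053). Ddit4 and Ep300 would not have passed the count filter without knockout libraries. Mitochondrially encoded genes took 2.08% to 2.82% of counts in knockout Leydig-targeted libraries and 3.22% to 8.76% in wild-type ones, and pseudogenes 2.02% to 2.41% in knockout and 3.58% to 4.81% in wild-type ones. Shares of spermatocyte and elongating spermatid markers also differed between these libraries, as given above. The part of all these shares in the gene differences was not tested.

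Within knockouts, Leydig-targeted libraries lacked the Trp53 reads of entire sections. Trp53 was the single member called, and it was lower, where the background was 3.53% lower and 1.91% higher. It had 0, 0 and 0 counts in knockout Leydig-targeted libraries, against 62, 32 and 31 in knockout sections, at least 3.78-fold lower (adjusted p = 0.00653). Without knockout Leydig-targeted replicate 1 or 2 adjusted p was 0.0727 and 0.0545. Trp53 passed the count filter through knockout sections alone. Bcl2l1 was also at 0 in these Leydig-targeted libraries, at least 1.48-fold lower than the 49 counts of knockout sections, but was not called (adjusted p = 0.098).

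Mdm2 was not called between the knockout regions, with 21 counts in Leydig-targeted libraries and 72 in sections. The summed CPM was 195 (120 to 298) in knockout Leydig-targeted libraries and 60.5 (47.4 to 76.2) in knockout sections, and the log2 fold change was 1.57 ± 0.60 (adjusted p = 0.0939). At library size alone, adjusted p was 0.0313. Sesn1 ran the other way, at 92.7 CPM (44.4 to 170) in knockout Leydig-targeted libraries and 186 CPM (162 to 212) in knockout sections, with −1.24 ± 0.62 (adjusted p = 0.231). In all, 4 of 9 members had an unadjusted p under 0.05, against 1057 of 5182 genes tested. Of the 17 other pathway genes edgeR called 0, with 3 at an unadjusted p under 0.05, and DESeq2 called 2.

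Within wild types, Leydig-targeted libraries held more Sesn1 than entire sections and less Bcl2l1. These were the members called, 1 higher and 1 lower, beside backgrounds of 3.22% higher and 12.4% lower. Sesn1 had 219, 186 and 0 CPM in wild-type Leydig-targeted libraries, against 24.7, 21.0 and 0 CPM in wild-type sections. Replicates 1 and 2 were far above both sections with counts, while replicate 3 was at 0 in both regions, so the groups overlapped. The summed ratio was 10.4 (5.25 to 20), and the log2 fold change was 2.79 ± 0.67 (n = 3 each, adjusted p = 0.00116). Without wild-type Leydig-targeted replicate 1 adjusted p was 0.109, and with Leydig marker scaling the log2 fold change was 1.51 (adjusted p = 0.0615).

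Bcl2l1 had 1, 0 and 0 counts in wild-type Leydig-targeted libraries, against 50, 37 and 26 in wild-type sections. It was 7.41-fold lower (1.30 to 295) on that 1 count, with a log2 fold change of −3.42 ± 1.15 (adjusted p = 0.0258). Bcl2l1 passed the count filter through wild-type sections alone. The call was lost without wild-type Leydig-targeted replicate 1, 2 or 3 (adjusted p = 0.129, 0.117 and 0.114), wild-type section replicate 1 or 3 (0.0933 and 0.0599) or knockout Leydig-targeted replicate 3 (0.0611). Mdm2 was at 205 CPM (122 to 324) in wild-type Leydig-targeted libraries and 191 CPM (168 to 216) in wild-type sections, with −0.47 ± 0.57 (adjusted p = 0.601). Trp53 had 0 counts in wild-type Leydig-targeted libraries, against 38 in wild-type sections, which the floor of 34.2 CPM in the Leydig-targeted libraries cannot tell from the section level of 28.4 CPM. Of the 17 other pathway genes 2 were lower, beside the 12.4% of all genes tested. Cdkn2c fell by 2.74 ± 0.77 (adjusted p = 0.00672), or 0.076 and 0.0555 without wild-type Leydig-targeted replicates 1 and 3 and 0.0592 without wild-type section replicate 1. It passed the count filter through wild-type sections, which partly sets this call. Ep300 was at least 1.42-fold lower (adjusted p = 0.0297), and its call was lost without any 1 of the 3 wild-type Leydig-targeted libraries (0.249, 0.0987 and 0.0976), the 3 wild-type sections (0.0718, 0.0502 and 0.0666) or knockout Leydig-targeted replicate 3 (0.0592).

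The genotype effect on Sesn1 differed between the regions. It was −1.24 in Leydig-targeted libraries and 2.79 in sections on the log2 scale, a difference of −4.03 ± 0.90 (interaction term, adjusted p = 0.00635). It was 1 of 17 genes called for this term, where 0.193% of genes tested were called higher and 0.135% lower, and it ranked 6 of 5182 by p. Adjusted p was 0.075 without wild-type section replicate 3, which held no Sesn1 count, and 0.09 without wild-type Leydig-targeted replicate 1. With Leydig and Sertoli marker scaling it was 0.0852 and 0.0717. For Mdm2 the term was 2.04 ± 0.82 (adjusted p = 0.285) and no other member was called, with 2 of 9 at an unadjusted p under 0.05, against 530 of 5182 genes tested. Of the 17 other pathway genes, edgeR called 0, with 3 at an unadjusted p under 0.05, and DESeq2 called 0.

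**Figure D5:**
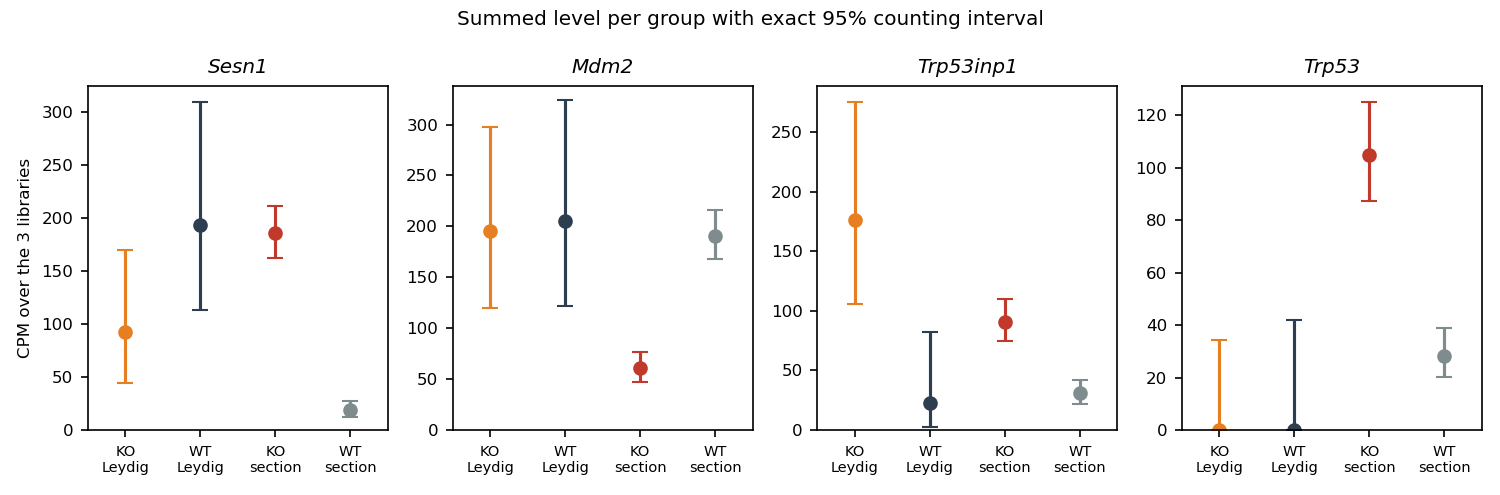
Summed level over the 3 libraries of each group in CPM (vertical axis, linear, from 0) for Sesn1, Mdm2, Trp53inp1 and Trp53, with exact 95% counting intervals. Sesn1 is lowest in wild-type sections (18.7 CPM) and Mdm2 in knockout sections (60.5 CPM), and the intervals of the Leydig-targeted groups are wide.

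Ordered by summed CPM, Sesn1 stood at 194 (113 to 310) in wild-type Leydig-targeted libraries, 186 (162 to 212) in knockout sections, 92.7 (44.4 to 170) in knockout Leydig-targeted libraries and 18.7 (12.1 to 27.6) in wild-type sections. The intervals of the first 3 overlapped, and wild-type sections lay apart from all other groups. Mdm2 stood at 205 CPM in wild-type Leydig-targeted libraries, 195 in knockout Leydig-targeted libraries and 191 in wild-type sections, with overlapping intervals. Knockout sections, at 60.5 CPM, lay apart from them. Trp53inp1 was at 176 CPM (106 to 275) in knockout Leydig-targeted libraries, 90.8 (74.5 to 110) in knockout sections, 30.7 (22.0 to 41.6) in wild-type sections and 22.8 (2.76 to 82.4) in wild-type Leydig-targeted libraries. Neighbours in that order overlapped except the sections of the genotypes.

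Genes with profiles like those of Sesn1 and Mdm2 were sought over the 12 libraries by Pearson's r of scaled log2 CPM among 4697 named candidates. All points share library depth, and replicate 3 of the wild-type Leydig-targeted group was at 0 in every gene named here, so the values are descriptions. Closest to Sesn1 were Cstdc2 (0.93), Plscr4 (0.921), Mrps24 (0.90), Scamp2 (0.897) and Nr3c1 (0.878), the glucocorticoid receptor. Closest to Mdm2 were Strbp (0.921), Zfp91 (0.917), Gstt3 (0.917), Sh3glb1 (0.912) and Tle3 (0.897). Strbp, a spermatid RNA-binding protein, had 92.5, 86.7 and 87.0 CPM in knockout sections, against 337, 329 and 400 CPM in wild-type sections. Nr3c1 had 50.4, 81.6 and 46.6 CPM in knockout sections, against 14.1, 13.4 and 12.1 CPM in wild-type sections.

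Positions on GRCm38 place Sesn1 on the plus strand of chromosome 10 from 41809935 to 41908424 and Mdm2 on the minus strand of the same chromosome from 117688875 to 117710758. All 10 members are annotated as protein-coding. Sesn1 shares 2584 bases on its own strand with 9930024M15Rik, which had 17 counts over all 12 libraries. Reads in the shared bases may have been counted for either gene or for neither. Cdkn1a overlaps a gene model on the opposite strand that had 0 counts.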

How the data were processed

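The authors deposited unnormalized counts, whole numbers for each gene and library, as the values show. The submitters' processing notes name featureCounts, HISAT2, Trim Galore, UMI-tools and the genome build GRCm38. The sources used here do not give their versions, their order or a strand setting, so reads of overlapping genes may be shared. Members and gene lists were chosen with earlier results of these data known. CPM is a count divided by the library total. Totals ran from 5947 to 566527 counts.

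Counts of all 12 libraries were tested with edgeR 4.0.16 (robust quasi-likelihood, 1 coefficient per group, TMM) in R 4.3.3 with limma 3.58.1. Genes were kept by the package's filter at a minimum count of 10, about 66.1 CPM in at least 3 libraries, and 5182 were tested. A gene was called where the p adjusted over all of them (Benjamini-Hochberg) was under 0.05. The comparisons were knockout against wild type in each region, the targeted libraries against sections within each genotype, and their interaction. An SE is the log2 fold change divided by the root of its F statistic. Ratios of summed CPM have exact 95% conditional intervals, and a fold against a group at 0 is a bound at 3 counts over the group. The fit was also run on simulated counts in which few genes changed, equally many up and down. That run does not check the scaling of the real libraries.

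Alternatives were DESeq2 1.42.0 (size factors and Wald test), library size alone, TMMwsp, scaling to Leydig or Sertoli marker counts, no filter, a minimum count of 5, a non-robust fit, the libraries of a comparison alone, a replicate block and leaving out each library over the same genes. Leaving out both shallowest Leydig-targeted libraries was chosen after seeing the data. Each library's differences from the mean of its group were correlated over genes. Knockout and wild-type sections with the same number gave 0.243, 0.132 and 0.194, and those with different numbers −0.149 to −0.022. Wild-type Leydig-targeted replicate 1 and wild-type section replicate 2, which differ in number, gave 0.127. These values therefore do not settle whether sections are paired by number, and no label states it. Same-numbered Leydig-targeted libraries of knockouts and wild types gave −0.004, 0.008 and −0.006.

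Every member is named. Of the other pathway genes, up to 6 called genes are named in sections and up to 4 in each other comparison, by smallest p, and the 5 genes most like Sesn1 and Mdm2 by Pearson's r, leaving out Gm and Rik models and genes of mitochondria or ribosomal proteins. Positions are from GENCODE on GRCm38.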

Additional observations from a re-analysis of the deposited data

Results flagged for a closer look

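The genotype effect on Sesn1 differed between the regions by −4.03 on the log2 scale (edgeR interaction term, adjusted p = 0.00635). Sesn1 had 113, 101 and 0 CPM in knockout Leydig-targeted libraries, against 219, 186 and 0 CPM in wild-type Leydig-targeted libraries. In sections it had 135, 250 and 183 CPM in knockouts, against 24.7, 21.0 and 0 CPM in wild types. Without both shallowest Leydig-targeted libraries, a setting chosen after seeing the data, the difference was −4.03 with adjusted p = 0.0463.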

How the results depend on the processing

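Sesn1, Mdm2 and Bcl2l1 kept their direction in sections in every alternative run. The 6 members called in sections became 5 with the replicate block and with the DESeq2 Wald test, where Zmat3 was not called. Zmat3 was also not called with DESeq2 size factors, library size alone, TMMwsp, no filter, a minimum count of 5 and the libraries of the comparison alone. In those 2nd-named runs Trp53inp1 was called, and at library size alone Cdkn1b too, 7 members in all. Sertoli marker scaling called 1 higher and 3 lower. Trp53 reversed to −1.08 and Ccng1 to −0.512 in sections when scaled to Leydig marker counts; both are relative to a median gene that moved to −2.74. The count of members called in Leydig-targeted libraries went to 0 with TMMwsp, Sertoli marker scaling, the DESeq2 Wald test, no filter, the non-robust fit and the replicate block, from 1. It was 1 with Leydig marker scaling too, but there the member called was Sesn1, lower, and Trp53inp1 was not called. In sections that scaling called 6 members, all lower. With the Leydig-targeted libraries alone no member passed the filter, so that fit gave no value. For knockout regions the count was 2 at library size alone, with Leydig marker scaling and with the libraries of the comparison alone, and 3 with Sertoli marker scaling, from 1. For wild-type regions it was 1 at library size alone, with TMMwsp, Sertoli marker scaling and DESeq2, 5 with Leydig marker scaling and 0 with the libraries of the comparison alone, from 2. For the interaction it was 0 with Leydig or Sertoli marker scaling and with no filter, from 1. Leaving out 1 library gave 5 to 7 members called in sections, 0 to 1 in Leydig-targeted libraries, 0 to 2 between knockout regions, 0 to 2 between wild-type regions and 0 to 1 for the interaction. Beyond the marker scalings and the fits on fewer genes or libraries, the cause of these changes was not tested. The replicate block changed no call of a member in the region comparisons or the interaction, and ended that of Trp53inp1 in Leydig-targeted libraries (adjusted p = 0.066). Depth limits the Leydig-targeted libraries most: they held 95 member counts in knockouts and 59 in wild types, against 1177 in knockout sections and 881 in wild-type sections.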

Other observations

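Most p53 pathway genes in the table were too low to be tested, with 17 of 69 passing the filter. The genes named here were chosen after their values were seen, so they are given as values with no test. For Sesn2 and Sesn3, the other sestrins, the interval of the ratio between knockout and wild-type sections included no difference. Sesn2 had 19, 9 and 7 counts in knockout sections, against 21, 3 and 7 in wild-type sections, a CPM ratio of 1.27 (0.76 to 2.13 by counting error). Sesn3 had 12, 16 and 7 counts in knockout sections, against 12, 15 and 10 in wild-type sections, a ratio of 1.06 (0.65 to 1.73). For Sesn1 that ratio was 9.93 (6.55 to 15.7).

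Gadd45a, a p53 target of the DNA damage response, had 29, 37 and 9 counts in knockout sections, against 0, 0 and 0 in wild-type sections, at least 28.1-fold higher by the floor of 3 counts over the group. Its counts were 3, 2 and 1 in knockout Leydig-targeted libraries, against 1, 1 and 0 in wild-type Leydig-targeted libraries. Bax, the pro-apoptotic Bcl2 family target of p53, had 27.3, 35.7 and 34.2 CPM in knockout sections, against 3.53, 5.74 and 16.2 CPM in wild-type sections, a ratio of 4.74 (2.25 to 11.2). Among other untested targets whose interval excluded no difference, more were higher than lower in knockout sections. Sfn was 42.7-fold higher in knockouts (7.21 to 1730) on 1 wild-type count. Btg2 was 7.19-fold higher (2.78 to 23.6) and Xpc 7.12-fold (2.09 to 37.5). Rrm2b was 2.87-fold higher (1.28 to 7.05), Apaf1 2.33-fold (1.16 to 4.93) and Ccng2 2.31-fold (1.26 to 4.4). Ak1 was 5.64-fold lower (3.05 to 11.4), and Trp53i13 was 8.9-fold lower (1.27 to 386) on 1 knockout count. Intervals for Bbc3, Pmaip1 and Gtse1 included no difference. These CPM ratios are unscaled and have no background of their own. Among the genes tested, which are other genes, 39.6% had CPM values wholly higher in knockout sections and 36% wholly lower, which is also another measure. Trp53bp1, which binds damaged chromatin, was 2.86-fold lower in knockout sections than in wild-type sections (1.79 to 4.72).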
